A study of Mus musculus with 14 samples.

Results

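A set of 10 mouse genes that are used to recognise dendritic cells was examined. Siglech, Tcf4, Bst2, Spib, Ly6d and Ccr9 are markers or regulators of plasmacytoid dendritic cells, Zbtb46, Batf3 and Xcr1 of conventional dendritic cells, and Ffar2 is a fatty acid receptor that belongs to neither class. The genes were chosen by name, with earlier results of these data known. All 10 were found among the 17890 genes of the deposited table, with 86 of its 58563 transcripts. RNA was sequenced from bone marrow-derived macrophages, per the labels: cells grown out of marrow progenitors for 7 days with M-CSF, the growth factor of macrophages, in medium with 5 mmol/L glucose. The 4 D libraries were assigned to diabetic mice: male C57BL/6J animals, an inbred strain, aged 8 weeks at the start, that received streptozotocin, a toxin of the insulin-producing beta cells. It was injected into the abdominal cavity at 42 to 45 mg/kg daily on 5 days, each time after 12 h without food. Mice above 16.9 mmol/L blood glucose counted as diabetic, and their marrow was taken after 6 weeks of hyperglycaemia. The 4 M libraries were assigned to healthy control mice of the same strain, sex and starting age. D is the initial of diabetic, but no label explains M, which was assigned to the healthy mice by elimination. Every direction below would turn round if the letters meant the opposite. A further 3 diabetic-trained and 3 untrained samples were not analysed here. Whether every library stands for a separate mouse is not stated in the labels, so the p-values reflect variation between samples that could be technical in origin.

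Dendritic cells sense microbes and present antigen to T cells. The plasmacytoid kind detects viral nucleic acids in endosomes through Toll-like receptors and is known for making large amounts of type I interferon. It forms in bone marrow under the transcription factor Tcf4. The conventional kind specialises in antigen presentation. Its lineage is marked by Zbtb46, and the branch that presents antigen to CD8+ T cells needs Batf3 and carries Xcr1. Both kinds depend mainly on the cytokine Flt3 ligand, whereas the cultures here received M-CSF. Several plasmacytoid markers are shared with other cells: Spib, Ly6d and Tcf4 are also active in B-lineage cells, and Bst2 is induced by interferon in many cell types.

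The promoters of 3 genes are printed to show what lies at the start of 2 plasmacytoid genes that were lower in the D libraries, Siglech and Ccr9, and of the interferon-induced Bst2, whose groups overlapped. Each runs from 250 bases before to 50 after the annotated start, in RefSeq's promoter table of GRCm38.p6, 5′ to 3′ on the gene's strand. Capitals in Siglech (chr7:55767934-55768233, plus strand) and Ccr9 (chr9:123766961-123767260, plus strand) mark the E-box CANNTG, the type of site bound by E proteins such as Tcf4. Capitals in Bst2 (chr8:71537423-71537722, minus strand) mark the core of the interferon-stimulated response element, GAAA followed by any 2 bases and GAAA again.
Siglech: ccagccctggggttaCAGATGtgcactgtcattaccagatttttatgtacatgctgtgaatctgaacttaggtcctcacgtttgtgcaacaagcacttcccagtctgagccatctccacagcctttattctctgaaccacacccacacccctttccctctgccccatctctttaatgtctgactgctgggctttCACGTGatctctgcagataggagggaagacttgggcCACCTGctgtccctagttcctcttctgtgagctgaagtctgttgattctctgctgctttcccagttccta
Ccr9: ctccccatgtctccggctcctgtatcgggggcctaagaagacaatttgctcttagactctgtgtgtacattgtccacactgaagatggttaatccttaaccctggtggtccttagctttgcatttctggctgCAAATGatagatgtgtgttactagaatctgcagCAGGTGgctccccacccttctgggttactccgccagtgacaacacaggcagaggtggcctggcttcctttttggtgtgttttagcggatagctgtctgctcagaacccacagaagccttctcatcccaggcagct
Bst2: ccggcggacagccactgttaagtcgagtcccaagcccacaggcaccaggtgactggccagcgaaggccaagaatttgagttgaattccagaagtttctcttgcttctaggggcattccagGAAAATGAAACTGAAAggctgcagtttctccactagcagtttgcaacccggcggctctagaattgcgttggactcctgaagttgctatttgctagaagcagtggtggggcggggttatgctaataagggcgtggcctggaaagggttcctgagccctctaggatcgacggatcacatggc
Siglech held 3 E-boxes and Ccr9 held 2, both strands being searched. The response element core occurred in 2 overlapping copies in Bst2. An E-box was present in 72.3% of the 32851 promoters of the table, so its presence is common, whereas the response element core was present in 3.44%. The search of the members covered 11 promoter entries for 8 of the 10 genes. The promoters of Ly6d and Tcf4 were not examined, so nothing is said of them here. All 11 held an E-box, and the response element core was found in Bst2 only. These matches describe the letters of the window and say nothing of binding.

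Sequencing gave 19048195 to 20027967 estimated counts per library. The quasi-likelihood test of edgeR, at a Benjamini-Hochberg adjusted p of 0.05, called 34.7% of the 12839 genes with enough counts, 17.4% as higher in D and 17.3% as lower. Higher genes made up 50.1% of these calls with TMM scaling factors, and 31.3% of them when the libraries were scaled by their totals. That scaling shifted the median log2 fold change of all genes by -0.10. On the first principal component the D libraries lay at -16, -32.1, -54.5 and -27.2 (replicates 1 to 4) and the M libraries between 27.9 and 37.6, so D replicates 1 and 3 stood apart from the other D libraries in opposite directions. Of 12 macrophage markers, 8 were higher in D (17.4% of all tested genes were), with sums of 13164 to 19869 TPM in D and 9280 to 10872 TPM in M. Csf1r was at 86.2 to 116 TPM (transcript abundance corrected for length, with the same total in each library) in D libraries and at 74.8 to 87.7 TPM in M libraries, and Adgre1 at 34.4 to 59.9 and 23.2 to 32.6 TPM. The mature macrophage genes Mrc1 and Mertk stayed at or below 1.08 TPM in every library. The 14 neutrophil markers summed to 134501 to 194571 TPM in D libraries and 130128 to 131238 TPM in M libraries, 13.5% to 19.5% and 13.0% to 13.1% of all TPM. Markers of basophils, mast cells and eosinophils (8 of 10 higher) summed to 1105 to 1416 TPM in D and 727 to 815 TPM in M, and those of T and natural killer cells (5 of 9 tested higher) to 37.8 to 56.8 TPM in D and 24.8 to 32.3 TPM in M. The part of these cell types in the results below was not tested.

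Of the 10 genes, 5 were lower and 1 was higher in the D libraries, 3 did not pass the test, and Batf3 had too few counts to be tested. All 5 lower genes were of the plasmacytoid class: Spib (8.59-fold lower in D), Ly6d (6.47-fold), Siglech (2.25-fold), Ccr9 (2.23-fold) and Tcf4 (1.41-fold). Of these, Spib, Ly6d and Tcf4 are also active in B-lineage cells. The D and M libraries overlapped in Bst2 and in the conventional markers Zbtb46 and Xcr1, and Ffar2 was the gene that was higher. Because the 10 genes were chosen with earlier results of these data known, setting them beside all tested genes is a description. Among all tested genes 17.3% were lower and 17.4% higher. In 18.4% of all tested genes every D library lay below every M library, as in these 5 genes, and in 34.7% the groups did not overlap in either direction. The median log2 fold change of the 6 plasmacytoid markers was -1.16, and that of all tested genes was -0.03. In RNA from whole cultures, fewer cells of a type and less RNA per cell cannot be told apart.

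**Figure D1:**
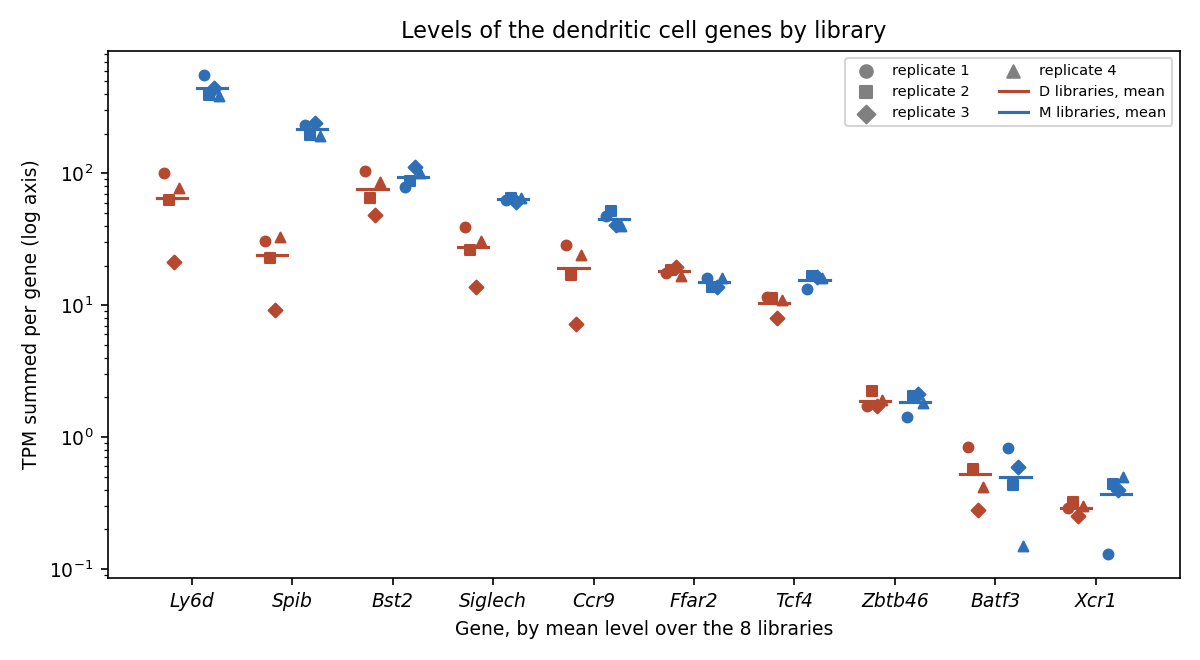
Level of each of the 10 genes in TPM (log axis), with 4 D libraries left of 4 M libraries for each gene, a marker shape per replicate and a bar at the group mean. Spib, Ly6d, Siglech, Ccr9 and Tcf4 lie lower in all 4 D libraries than in any M library, and the conventional genes Zbtb46, Batf3 and Xcr1 lie at the bottom of the scale with overlapping groups.

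Levels were compared between genes in TPM. In the D libraries Bst2 had the highest mean level, 75.7 ± 24.6 TPM (SD, n = 4), followed by Ly6d at 65.6 ± 33.6 TPM. Siglech averaged 27.5 ± 10.6, Spib 23.9 ± 10.7, Ccr9 19.2 ± 9.29, Ffar2 18.1 ± 1.27 and Tcf4 10.5 ± 1.66 TPM in the D libraries. Zbtb46 averaged 1.89 ± 0.236 TPM there, and Batf3 and Xcr1 stayed below 1 TPM in every library. In the M libraries Ly6d led with 446 ± 81.1 TPM and Spib came next with 216 ± 26.1 TPM, ahead of Bst2 at 94.6 ± 14.2 TPM. Siglech averaged 63.5 ± 2.1, Ccr9 44.9 ± 5.88, Tcf4 15.6 ± 1.53, Ffar2 14.9 ± 1.32 and Zbtb46 1.85 ± 0.320 TPM in the M libraries. Spib thus stood below Bst2 in every D library and above it in every M library. In the D libraries the range of each gene from Bst2 down to Ccr9 overlapped that of the next lower gene, so their order by mean is not a separation. The ranges of Ly6d and Spib and of Siglech and Ccr9 overlapped there too. In the M libraries the ranges of Ffar2 and Tcf4 overlapped. Batf3 and Xcr1 overlapped in both groups.

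The 2 plasmacytoid transcription factors differed in size of change. Tcf4 (NCBI gene 21413, chromosome 18, 69343429 to 69687967, GRCm38), the E protein that specifies and maintains plasmacytoid dendritic cells, had 43.9, 44.3, 33.8 and 43.6 CPM (counts scaled to TMM-adjusted library sizes) in D replicates 1 to 4, against 50.8, 61.5, 60.7 and 59.9 CPM in M replicates 1 to 4. Every D library was below every M library, and D replicate 3 was the lowest of its group. The log2 fold change was -0.49 ± 0.10 (SE, n = 4 per group; edgeR adjusted p = 0.0042). Spib (gene 272382, chromosome 7, 44525995 to 44532087), an ETS-family factor of plasmacytoid and B-lineage cells, had 46.1, 34.9, 15.4 and 51.2 CPM in the D libraries, against 354, 287, 351 and 279 CPM in the M libraries. The groups were far apart, and D replicate 3 was again lowest. The log2 fold change of Spib was -3.10 ± 0.33 (edgeR adjusted p = 0.00041), the largest decrease among the 9 tested genes.

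Among the surface markers, Siglech (gene 233274, chromosome 7, 55768154 to 55779448), a sialic acid-binding receptor that is the classic mouse marker of plasmacytoid dendritic cells, had 45.1, 29.8, 16.9 and 35.8 CPM in the D libraries, against 72.4, 75.8, 67.1 and 71.8 CPM in the M libraries. All 4 D libraries lay below the lowest M library. Its log2 fold change was -1.17 ± 0.24 (edgeR adjusted p = 0.0070). Ly6d (gene 17068, chromosome 15, 74762056 to 74763567), a small membrane-anchored protein that marks lymphoid progenitors bound for the B lineage or for plasmacytoid cells, had 35.1, 21.8, 8.00 and 28.0 CPM in the D libraries, against 195, 132, 148 and 128 CPM in the M libraries. The groups did not overlap, and the log2 fold change was -2.69 ± 0.38 (edgeR adjusted p = 0.0016).

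Ccr9 (gene 12769, chromosome 9, 123767211 to 123783457), the receptor of the gut and thymus chemokine Ccl25 and a marker of plasmacytoid cells in mice, had 66.7, 39.9, 18.2 and 57.5 CPM in the D libraries, against 110, 118, 89.1 and 89.6 CPM in the M libraries. The groups did not overlap, but the D libraries were spread widely, with D replicate 1 near the M range and D replicate 3 far below it. The log2 fold change was -1.15 ± 0.34, with an edgeR adjusted p of 0.0324 that is close to the threshold. That call was lost without D replicate 2 (adjusted p = 0.0776) and without any single M library (0.0531 to 0.0671), and also without the filter on low counts (0.0767). Bst2 (gene 69550, chromosome 8, 71534255 to 71537472), also called tetherin, holds budding virus at the cell surface. It had 43.0, 26.7, 21.6 and 36.3 CPM in the D libraries, against 32.5, 34.6, 43.4 and 39.7 CPM in the M libraries. These ranges overlapped, with D replicate 1 near the top and D replicates 2 and 3 below all M libraries. The log2 fold change of Bst2 was -0.23, with a 95% interval of -0.67 to 0.20 (edgeR adjusted p = 0.378), which does not show that its level was equal.

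The conventional markers were scarce in both groups. Zbtb46 (gene 72147, chromosome 2, 181371009 to 181493262), a zinc finger factor restricted among immune cells mostly to conventional dendritic cells, had 3.07, 3.93, 2.81 and 3.28 CPM in the D libraries, against 2.54, 3.40, 3.26 and 2.86 CPM in the M libraries. The groups overlapped, with a log2 fold change of 0.12 (95% interval -0.25 to 0.49; edgeR adjusted p = 0.60). Its annotated span overlaps those of Abhd16b, Lime1 and Zgpat, so without known strand some reads could belong to these neighbours. Xcr1 (gene 23832, chromosome 9, 123852315 to 123862029), the receptor of the chemokine Xcl1 on cross-presenting dendritic cells, had 0.704, 0.766, 0.662 and 0.729 CPM in the D libraries, against 0.342, 0.999, 0.902 and 1.15 CPM in the M libraries. The D libraries lay inside the M range, and the log2 fold change was -0.24 (95% interval -0.99 to 0.51; edgeR adjusted p = 0.605). Batf3 (gene 381319, chromosome 1, 191098414 to 191108943), a basic leucine zipper factor, had 6, 4, 2 and 3 counts in the D libraries and 6, 3, 4 and 1 in the M libraries, 29 in all. The counts of both groups overlapped, and Batf3 did not reach the minimum count for the test.

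Ffar2 (gene 233079, chromosome 7, 30818031 to 30823775), a receptor for acetate and other short-chain fatty acids that is found on neutrophils and other leukocytes, had 16.7, 17.4, 19.7 and 15.9 CPM in the D libraries, against 15.5, 12.4, 12.5 and 14.3 CPM in the M libraries. Every D library was above every M library, though D replicate 4 and M replicate 1 were close. The log2 fold change was 0.35 ± 0.11 (edgeR adjusted p = 0.0262). The call was lost with library totals as scaling (log2 fold change 0.24, adjusted p = 0.0864) and when D replicate 2 (adjusted p = 0.0576) or M replicates 2 (0.0757) or 3 (0.0751) were left out. Of the neutrophil markers, 11 of 14 were higher in the D libraries (17.4% of all tested genes were), with a median log2 fold change of 0.79 and no marker at 0 in all libraries. Their part in the Ffar2 result was not tested.

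**Figure D2:**
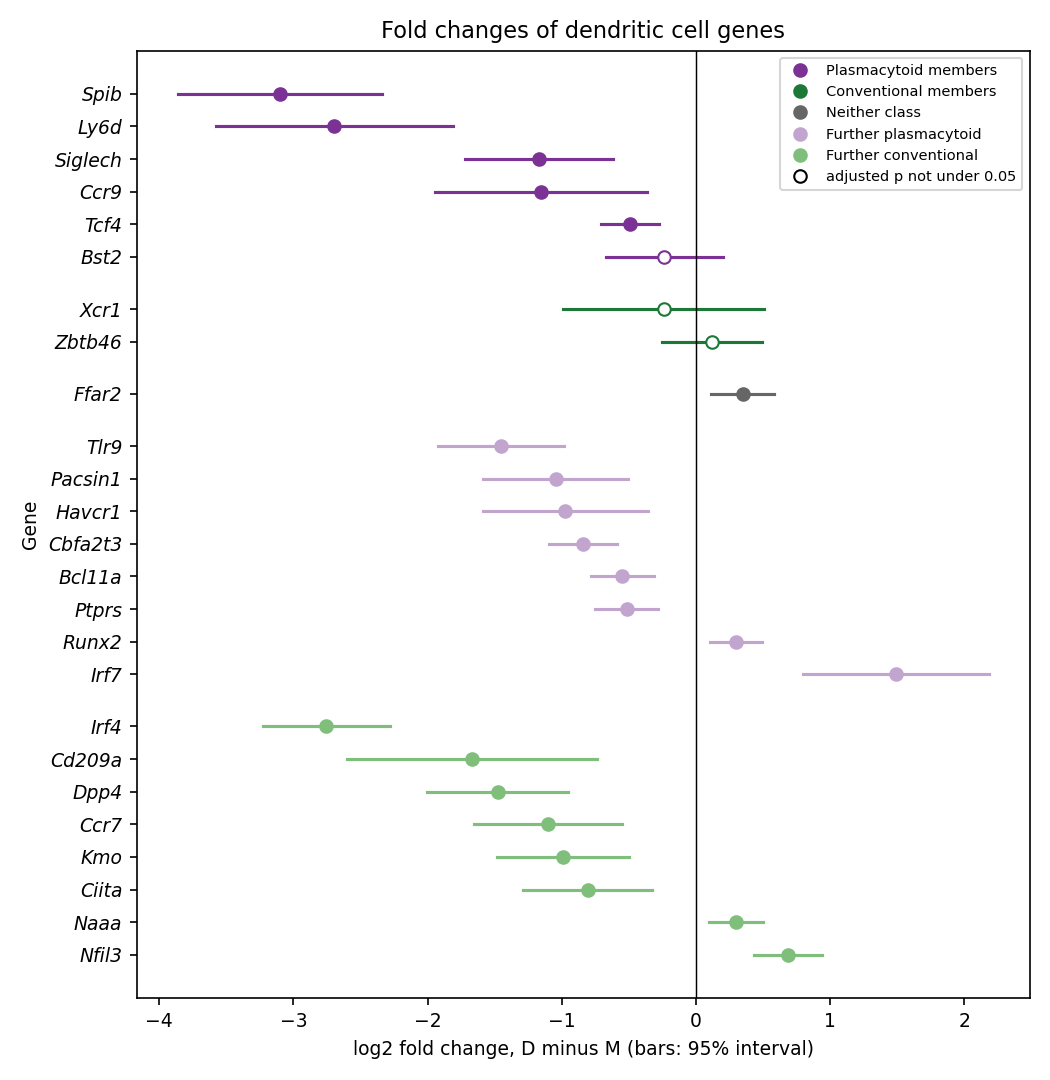
Log2 fold change, D minus M, with its 95% interval for the 9 tested genes and for the named further plasmacytoid and conventional dendritic genes; open circles did not pass an adjusted p of 0.05. Spib at -3.10 and Ly6d at -2.69 lie far left of Siglech at -1.17, while Zbtb46, Xcr1 and Bst2 have intervals that include 0.

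The D libraries differed among themselves in the plasmacytoid genes. In CPM relative to the mean of the M libraries, Siglech stood at 62.8%, 41.6%, 23.6% and 49.9% in D replicates 1 to 4, and Ccr9 at 65.6%, 39.3%, 17.9% and 56.6%. Spib stood at 14.5%, 11%, 4.86% and 16.1%, and Ly6d at 23.3%, 14.5%, 5.31% and 18.6%. The genes therefore formed tiers inside each D library: Spib and Ly6d retained the smallest share of the M level, Siglech and Ccr9 more, and Tcf4 (58.1% to 76.1%) and Bst2 (57.4% to 114%) the most. D replicate 3 was the lowest D library in all of these genes, and in Ffar2 it was the highest. Without D replicates 1 and 3, a choice made after seeing the data, the same 5 plasmacytoid genes were called lower and Ffar2 was no longer called (adjusted p = 0.0708).

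Of 16 B-lineage markers, 14 were lower in the D libraries (17.3% of all tested genes were), with a median log2 fold change of -3.00. All 16 together summed to 100.4 to 362 TPM in D and to 1839 to 2421 TPM in M. None of the 16 was at 0 in all libraries. Relative to the M mean, the sum stood at 14.1%, 11.4%, 4.65% and 16.8% in D replicates 1 to 4, close to Spib in each library. Ly6d stood somewhat above the sum in every D library, and Siglech, Ccr9, Tcf4 and Bst2 stood further above it. The sum is in TPM, whereas the percentages of the single genes are in CPM, which is scaled differently. The part of B-lineage RNA in the results for Spib, Ly6d and Tcf4 was not tested.

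**Figure D3:**
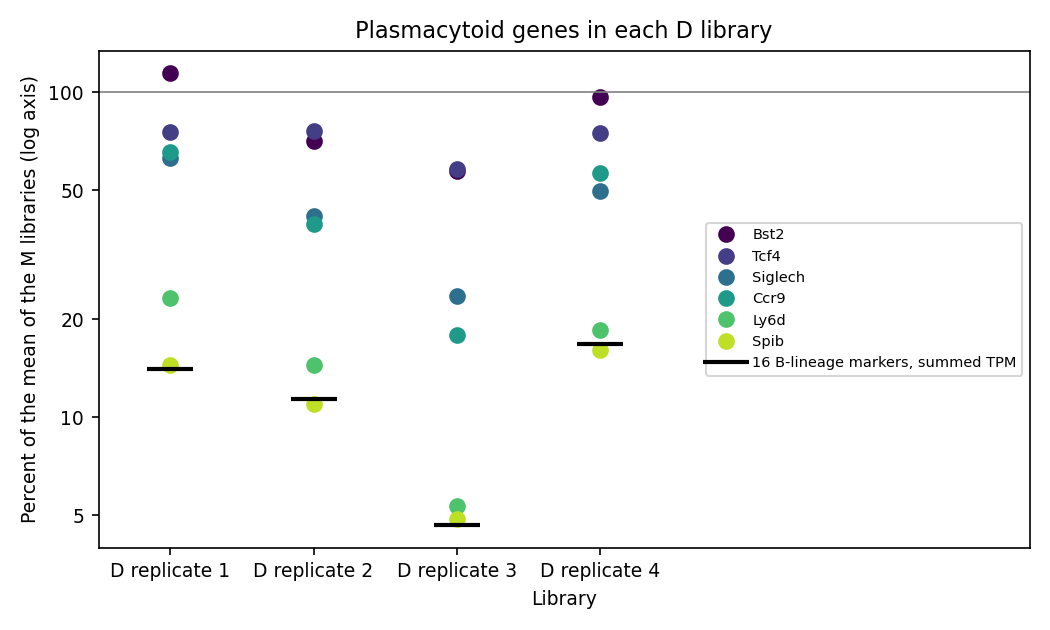
Level in CPM of the 6 plasmacytoid genes in each D library as a percentage of the mean of the 4 M libraries (log axis), with black bars for the summed TPM of 16 B-lineage markers. Spib follows the black bars, between 4.86% and 16.1%, while Siglech and Ccr9 lie above them in every D library and Tcf4 and Bst2 are highest.

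Ratios between members, taken inside a library, do not depend on the scaling between libraries. The 6 ratios below, in TPM, were chosen after the values had been seen, so they are given as a description without a test. Spib relative to Siglech was 0.779, 0.872, 0.672 and 1.07 in the D libraries, against 3.75, 3.03, 3.97 and 2.91 in the M libraries. Ly6d relative to Siglech was 2.57, 2.37, 1.54 and 2.53 in the D libraries, against 8.98, 6.06, 7.33 and 5.86 in the M libraries. The mean log2 ratios differed by -2.02 and -1.65 (D minus M). For Bst2 relative to Siglech the difference was 0.94, and for Siglech and Ccr9 relative to Zbtb46 it was -1.35 and -1.43. The groups did not overlap in these 5 ratios. Siglech relative to Zbtb46, a plasmacytoid against a conventional marker, was 22.7, 11.8, 8.05 and 16.2 in the D libraries, against 44.2, 31.5, 28.9 and 36.2 in the M libraries. Ccr9 relative to Siglech was 0.523 to 0.777 in D libraries and 0.611 to 0.805 in M libraries, with overlapping groups and a difference of -0.09.

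**Figure D4:**
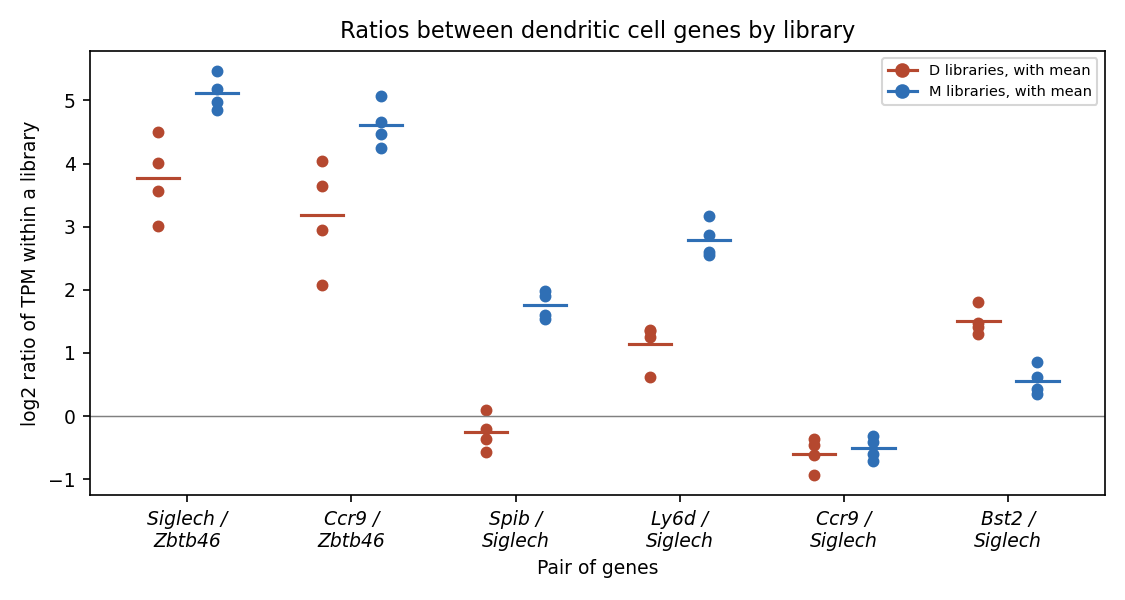
Log2 ratio of TPM between 2 genes inside each library, 4 D libraries left of 4 M libraries for each pair, with a bar at the group mean. Spib to Siglech lies between -0.57 and 0.10 in D and between 1.54 and 1.99 in M, while the points of Ccr9 to Siglech overlap.

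Taken as classes, the 6 plasmacytoid genes summed to 316, 204.5, 108 and 262 TPM in D replicates 1 to 4, against 996, 810, 919 and 797 TPM in M replicates 1 to 4. The 3 conventional genes summed to 2.86, 3.11, 2.24 and 2.62 TPM in the D libraries, against 2.36, 2.93, 3.10 and 2.46 TPM in the M libraries. The plasmacytoid sum was thus lower in every D library, and the conventional sums overlapped, at 2.71 ± 0.370 TPM in D and 2.71 ± 0.358 TPM in M (SD, n = 4). The plasmacytoid sum was 110, 65.8, 48.1 and 99.9 times the conventional sum in the D libraries, against 422, 276, 296 and 324 times in the M libraries. On the log2 CPM scale, the mean of the 6 plasmacytoid genes less that of Zbtb46 and Xcr1 differed by -1.57 between groups (D minus M). This value is a description without a test, because the genes were picked with results of these data in view. Spib and Ly6d, also active in B-lineage cells, had the largest decreases of the 6 genes, with log2 fold changes of -3.10 and -2.69. Siglech had -1.17, Ccr9 -1.15, Tcf4 -0.49 and Bst2 -0.23. On the conventional side, Xcr1 had only 6.56 to 22.7 counts per library. Ly6d and Spib made up most of the plasmacytoid sum in M, and Zbtb46 alone most of the conventional sum (means of 1.89 TPM in D and 1.85 TPM in M). Among the further genes described below, the sums of both kinds were lower in every D library. The 19 further plasmacytoid genes summed to 612 to 815 TPM in D and 830 to 903 TPM in M. The 22 further conventional genes summed to 318 to 380 TPM in D and 412 to 481 TPM in M. The overlap of the conventional sums is thus a result for Zbtb46, Batf3 and Xcr1 only.

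Further genes of each kind, taken from written lists, gave a mixed picture. Of 19 further plasmacytoid genes, 18 were tested: 9 were lower, 2 were higher and 7 did not pass, with a median log2 fold change of -0.35, against -0.03 for all tested genes. Over all tested genes, 17.3% were lower and 17.4% higher. Without M replicate 4, 5 genes of the list were lower, and with the most abundant transcript of each gene 2 were. Tlr9, the endosomal receptor of unmethylated DNA, was 14.4, 9.24, 6.45 and 12.3 CPM in the D libraries, against 32.7, 25.3, 31.6 and 26.9 CPM in the M libraries. Its log2 fold change was -1.45 ± 0.21 (edgeR adjusted p = 0.0009). Cbfa2t3, a transcriptional co-repressor that works with Tcf4, averaged 40.0 ± 7.14 CPM in D and 71.6 ± 3.64 CPM in M (log2 fold change -0.84). Bcl11a, a factor that sustains Tcf4 expression, had -0.55 and Ptprs, a phosphatase receptor, -0.52 on the same scale. Pacsin1, an endocytic adaptor, averaged 2.07 ± 0.815 CPM in D and 4.29 ± 0.656 CPM in M, and Havcr1 1.25 ± 0.411 and 2.48 ± 0.599 CPM. Slc15a4, Cd209d and Cox6a2 were lower too, and Klk1 had too few counts to be tested. The groups overlapped in Slc15a4 (log2 fold change -0.26) and in Cd209d. Cd209d had 12, 2, 0 and 4 counts in D replicates 1 to 4, against 12, 20, 19 and 26 in M replicates 1 to 4. The calls of Bcl11a, Ptprs, Pacsin1 and Havcr1 were lost when the most abundant transcript stood for each gene, and that of Havcr1 also without M replicate 3 or 4.

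Irf7, the factor that drives type I interferon genes, went the other way, with 50.1, 35.6, 52.5 and 86.8 CPM in the D libraries, against 15.6, 16, 29.1 and 19.4 CPM in the M libraries. All D libraries were above all M libraries, and the log2 fold change was 1.49 ± 0.30 (edgeR adjusted p = 0.0070). Irf7 is itself induced by interferon, and the interferon response list had 13 of 17 tested genes higher in D, beside 17.4% of all tested genes, with sums of 571 to 1099 TPM in D and of 303 to 492 TPM in M libraries. Their part in the results for Irf7 and Bst2 was not tested. Runx2, the other higher gene of the list, averaged 93.9 ± 8.15 CPM in D and 76.4 ± 7.09 CPM in M, a call that was lost with library totals as scaling (log2 fold change 0.19, adjusted p = 0.0941), with TPM values, without M replicate 1, and without D replicates 1 and 3. Irf8, a factor of dendritic cells and monocytes, had 174, 112, 80.3 and 161 CPM in the D libraries and 175, 169, 180 and 191 CPM in the M libraries. Every D value was below the M range except that D replicate 1 lay within it, and Irf8 did not pass the test (log2 fold change -0.44, adjusted p = 0.132). Tlr7, Lag3, Pld4, Zeb2, Lair1 and Unc93b1 also did not pass.

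Of 22 further conventional dendritic genes, 11 were lower, 2 were higher and 9 did not pass, with a median log2 fold change of -0.47, beside the same 17.3% lower and 17.4% higher over all tested genes. The number of lower genes was 6 or 7 when D replicate 2 (7), D replicate 4 (6), M replicate 1 (6) or M replicate 2 (7) was left out. It was 3 with the most abundant transcript of each gene. Irf4, a factor of the branch that presents antigen to CD4+ T cells and also of B cells, was 19.5, 17.9, 9.93 and 22.5 CPM in the D libraries, against 124, 104, 132 and 111 CPM in the M libraries. The groups were far apart, with a log2 fold change of -2.75 ± 0.21 (edgeR adjusted p = 4.2e-05). Dpp4, a surface peptidase also known as CD26, averaged 18.5 ± 6.68 CPM in D and 51.5 ± 4.79 CPM in M. Ccr7, the receptor that guides migrating dendritic cells to lymph nodes and that lymphocytes also carry, averaged 17.5 ± 6.14 and 37.7 ± 2.83 CPM. The lectin receptor Cd209a (2.16 ± 1.55 in D and 6.95 ± 1.40 CPM in M), Kmo, an enzyme of tryptophan breakdown (15.5 ± 5.18 and 30.8 ± 2.53 CPM), and Ciita, the switch of antigen-presenting MHC class II genes (11.5 ± 3.74 and 20.2 ± 1.62 CPM), were lower too. Cadm1, Clec9a, Wdfy4, Mgl2 and the Flt3 ligand receptor Flt3 were the other lower genes. Nfil3, a leucine zipper factor of several immune lineages, averaged 51.0 ± 8.16 CPM in D and 31.6 ± 2.92 CPM in M, and Naaa 29.2 ± 2.24 and 23.8 ± 2.35 CPM. The Naaa call was lost with library totals (log2 fold change 0.20, adjusted p = 0.149), with TPM values, and when D replicate 4 or M replicates 3 or 4 were left out. The calls of Irf4, Cd209a, Ciita and Naaa were lost with the most abundant transcript alone. Of the integrin and actin-bundling genes Itgax and Fscn1, which are also common in dendritic cells, neither passed.

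Genes with profiles most like each member were searched among 11273 tested genes, by the root mean square difference of log2 CPM after centring on each gene's mean over the 8 libraries. For Siglech the nearest were Kmo (0.118), Rnase6 (0.118) and Sytl4 (0.145), and Ccr9 was nearest among the members (0.181). For Ccr9 they were Plxdc2 (0.136), Patj (0.159) and Rnase6 (0.199). Kmo, the nearest to Siglech, is on the list of further conventional dendritic genes and was lower in D. Spib lay nearest to Tnfrsf13c (0.103), Cd79b (0.106) and Sbk1 (0.112), and Ly6d to Tmem163 (0.148), Atp1b1 (0.175) and Blnk (0.197). Cd79b and Blnk are on the list of B-lineage markers. Siglech and Ccr9 thus shared Rnase6, and the difference between Siglech and Spib was 1.01. Tcf4 lay nearest to Atm, Zfp90 and Zfp146 (0.057 to 0.062), and Bst2 to Ly86, Fgd2 and 2700097O09Rik (0.067 to 0.094). Zbtb46 lay nearest to Zfp677, Hcar2 and Cbwd1 (0.072 to 0.085), and Ffar2 to Numbl, Lta4h and Pgam1 (0.045 to 0.063). All profiles come from the same 8 libraries, so these values are a description.

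The table also holds counts per RefSeq transcript, where 55 of the 86 transcripts were tested. Across all 32312 tested transcripts 4.08% were called (2.28% higher and 1.80% lower), 736 higher and 581 lower by edgeR. With the replicate number as a block, these counts were 235 higher and 129 lower, and without any single library except D replicate 1 they were 105 to 371 higher and 138 to 380 lower. Among the members, 3 transcripts were lower. Ly6d has a single transcript, NM_010742 (log2 fold change -2.69 ± 0.43, edgeR adjusted p = 0.0216). For Spib the called ones were XM_030242628 (-3.07 ± 0.57, adjusted p = 0.0310) and XM_006540933 (-3.49 ± 0.38, adjusted p = 0.0091). With the block, the calls of NM_010742 (adjusted p = 0.0708) and XM_030242628 (0.12) were lost and that of XM_006540933 was kept (0.0425). The call of XM_030242628 was also lost without any single library except D replicate 4, and that of NM_010742 without any single library except D replicates 1 and 3.

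Spib shows how reads were divided between transcripts. The curated transcript NM_019866 took 55.8%, 67.8%, 0% and 18.9% of the counts of Spib in D replicates 1 to 4, against 50.2%, 42.5%, 35.8% and 38.8% in M replicates 1 to 4. It was listed at 0 in D replicate 3, where XM_030242628 took 57.1%. NM_019866 did not pass the test over all libraries (log2 fold change -3.16, adjusted p = 0.167), and did so without D replicate 3 (-2.74, adjusted p = 0.0298). For Siglech, 7 of 13 transcripts were tested and 2 had an unadjusted p under 0.05. Its leading transcript XM_030242469 took 50.9% of its counts over all libraries (log2 fold change -1.12, edgeR adjusted p = 0.18). NM_178706 of Siglech was listed at 0 in D replicates 3 and 4 and in M replicates 3 and 4. Ccr9 was split between NM_009913 (58.2% of its counts) and NM_001166625 (41.8%), and Tcf4 over 42 transcripts, none above 5.17% of the counts of the 8 libraries together. All 28 tested transcripts of Tcf4 missed the threshold, with 2 at an unadjusted p under 0.05 and 20 with a negative log2 fold change. When each gene was represented by its most abundant transcript alone, Spib and Ly6d were still called lower, whereas Siglech (adjusted p = 0.0608), Ccr9 (0.140), Tcf4 (0.83) and Ffar2 (0.289) were not.

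**Figure D5:**
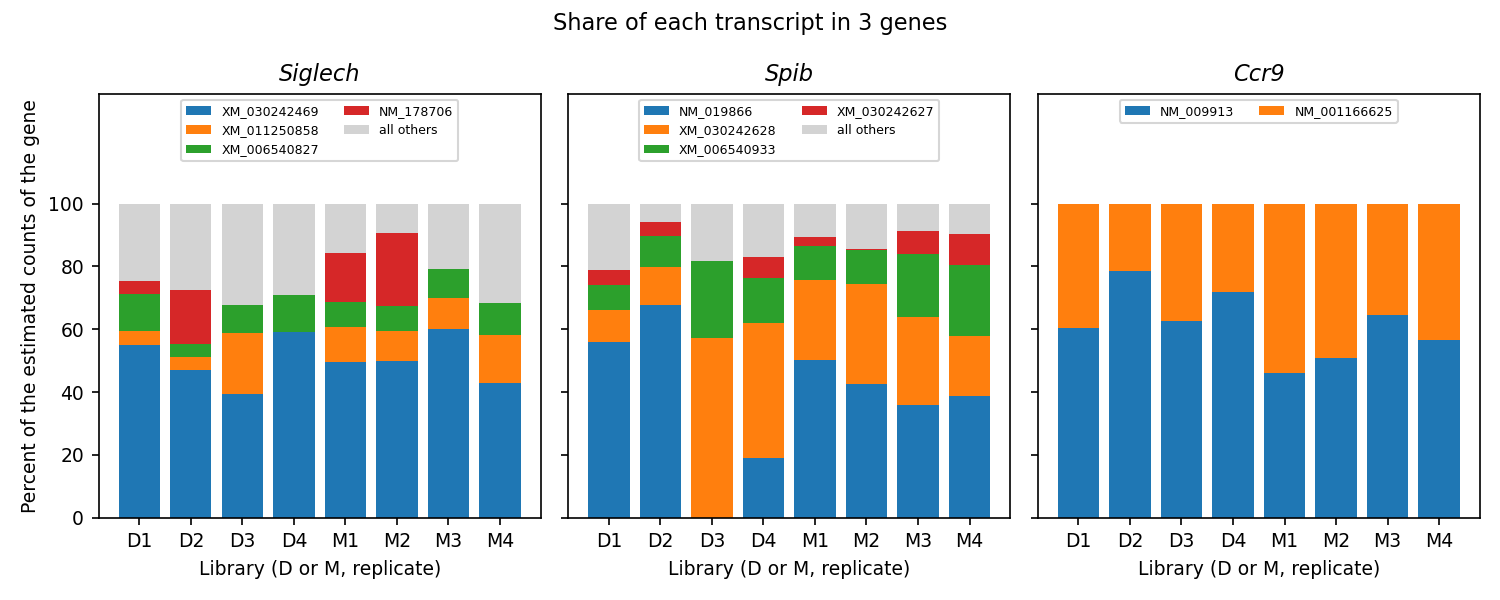
Percentage of the estimated counts of Spib, Siglech and Ccr9 that was assigned to each leading transcript, in 4 D libraries left of 4 M libraries. The Spib transcript NM_019866 takes 67.8% in D replicate 2 and is absent from the bar of D replicate 3, while its share in the M libraries stays between 35.8% and 50.2%.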

How the data were processed

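Messenger RNA of 8 phase 1 libraries, 4 D and 4 M, was analysed. Per the labels' design text, oligo(dT)-selected RNA was sequenced as DNA nanoballs. Reads passed SOAPnuke 1.5.6 and were placed on mm10 by HISTA2 2.1.0, as the text spells it, with the quantifier, annotation release and strand setting not given in the sources used here. Per the file headers, the authors deposited, for each RefSeq transcript, estimated counts, TPM and FPKM values scaled by transcript length, and a normalized count signal. The authors' FPKM values, normalized signal and 8 columns of group means were not used in tests.

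Of 60072 rows, entries with the same transcript were summed. Gene totals of the estimated counts were rounded. Symbols and coordinates came from RefSeq's GRCm38.p6 gene table, which gave 17836 of 17890 genes a symbol. Tests used the quasi-likelihood method of edgeR 4.0.16 in R 4.3.3 (TMM factors, robust, group only, filterByExpr with minimum count 10 and minimum total 15), adjusted over all tested genes or transcripts. CPM uses TMM-scaled library sizes, with factors of 0.913 to 1.01 in D and 1.03 to 1.05 in M. No library was a copy of another: chi-square per gene between replicates was 6.50 to 67.1, above sampling noise. Depth was alike in all libraries, and counting error is large only for genes with few counts. The scripts were tested on simulated counts.

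The members and lists were chosen with earlier results of these data known. All 10 members were named. From the lists of further dendritic genes, up to 6 called genes per direction with the lowest p were named, and the others were named after their values were seen. The 3 nearest genes were taken among genes with a mean log2 CPM of at least 1. Alternatives were DESeq2 1.42.0 size factors and its test, library totals, limma 3.58.1 voom, no filter, a minimum count of 50, log2 TPM with pseudocounts of 1 and 0.1, the most abundant transcript, a replicate block, and each library left out. The labels number replicates 1 to 4 in both groups. Deviations from group means correlated at 0.115, 0.131, 0.118 and 0.182 between same-numbered D and M libraries and at -0.178 to 0.0735 between others. No label says what the numbers stand for. The replicate block treats same-numbered libraries as pairs, whereas the main tests used group only and ignored any such pairing.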

Additional observations from a re-analysis of the deposited data

Results flagged for a closer look

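In 20 groups of 4 libraries, the CPM of each member was checked for a library far from the other 3, and chance flags about 1 in 20 such groups. Tcf4 was flagged in both groups. D replicate 3 had 33.8 CPM, where the other D libraries had 43.6 to 44.3 CPM. M replicate 1 had 50.8 CPM, where the other M libraries had 59.9 to 61.5 CPM.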

How the results depend on the processing

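Spib and Ly6d kept their calls under all 19 alternatives, with log2 fold changes of -3.31 to -2.83 and -2.96 to -2.40. Siglech and Tcf4 kept theirs under 18 of 19, Ccr9 under 12 and Ffar2 under 13, all with the same direction. Bst2, Zbtb46 and Xcr1 were called under none. The replicate block gave 2412 higher and 2403 lower genes, left the members at 1 higher and 5 lower, and changed no call of the members or of the 16 further dendritic genes named by rule. Of transcripts, 235 were higher and 129 lower with it. Without the filter, 486 transcripts were higher and 346 lower. Library totals gave 3346 lower genes and 0 higher members. The most abundant transcript gave 1114 higher and 978 lower genes, with 0 higher and 2 lower members, and turned Pacsin1 to 0.42. Without D replicates 1 and 3, 0 members were higher. At an unadjusted p under 0.05 edgeR had 1 higher member (Ffar2) in these settings except with the most abundant transcript (0), and DESeq2's test called 1 after adjustment. Leaving out single libraries gave 1710 to 2865 higher and 1583 to 2504 lower genes, 0 to 1 higher and 4 to 5 lower members, 105 to 1021 higher and 138 to 653 lower transcripts, and a class difference of -1.76 to -1.33. The Tcf4 transcript NM_013685 ran from -0.37 to 0.12, turning without D replicate 1, and the Zbtb46 transcript XM_006500714 from -0.017 to 0.34, turning without M replicate 1. Of the 43 other tested member transcripts, 14 changed sign and 2 passed the threshold under some alternative. Except where fewer samples or counts entered by construction, the cause was not tested. Few counts limit Batf3 and Xcr1.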
